A study of Mus musculus with 9 samples.

Results

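The genes of antigen presentation by MHC class II were followed in 3 sorted populations of innate lymphocytes from the epithelium of the mouse small intestine. The 8 genes were H2-Aa, H2-Ab1, H2-Eb1, Cd74, Ciita, H2-DMa, H2-Oa and H2-Ob, taken by symbol from 19938 genes measured on 9 Affymetrix Mouse Gene 1.0 ST arrays. Where a gene had several rows in the table, the row with the highest mean stood for it. All cells came from NOD-SCID mice of 8 to 10 weeks, a strain without mature T or B cells, and were sorted as CD3- CD45+ to a purity over 98%. Ly49E, a receptor known from NK cells, and CD8aa, the homodimer of the CD8 alpha chain, divided them into Ly49E+CD8aa+, Ly49E+CD8aa- and Ly49E-CD8aa+ cells, with 3 arrays each. The labels call the arrays biological replicates and do not give the number of mice behind an array.

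MHC class II molecules carry peptides from the endosomal pathway to the cell surface, where CD4+ T cells read them. Each is a pair of an alpha and a beta chain that assembles on the invariant chain, encoded by Cd74, and exchanges a remnant of that chain for a peptide with the help of H2-DM, which H2-O holds back. Transcription of most class II genes depends on CIITA, a coactivator recruited by factors bound to short conserved boxes in their promoters. Professional antigen-presenting cells such as dendritic cells, B cells and macrophages make class II constantly, the epithelium of the small intestine and some innate lymphoid cells make it too, and mouse T cells and NK cells make little.

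In the RefSeq annotation, 6 of the 8 genes lie on chromosome 17 in the order H2-Oa, H2-DMa, H2-Ob, H2-Ab1, H2-Aa and H2-Eb1. Ciita and Cd74 lie elsewhere. Windows from 250 bases before to 50 bases after a transcript start (RefSeq, GRCm38.p6) were matched for 5 of the 8 genes, namely H2-Aa, H2-Eb1, H2-DMa, H2-Oa and H2-Ob. The windows were searched on both strands for GCAAC, the core of the X box that RFX factors bind, followed on the same strand after 20 to 40 bases, from first letter to first letter, by TGATTGG, the Y box that NF-Y binds. The letters were chosen after the windows had been read. This pair was in 4 of the 5 genes, and in 0.204% of 32851 windows of the same length over all genes. GCAAC alone was in 35.2% and TGATTGG alone in 7.82% of the windows. The 110 bases before each start are given for those 4 genes because the arrangement is shared by H2-Aa, which was called between populations, and by H2-Eb1, H2-Oa and H2-Ob, which were not. Capitals mark the letters of the pair.
H2-Aa (chr17:34287824-34287933, minus strand): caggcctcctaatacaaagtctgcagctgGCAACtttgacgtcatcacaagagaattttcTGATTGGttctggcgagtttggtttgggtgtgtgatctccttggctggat
H2-Eb1 (chr17:34305757-34305866, plus strand): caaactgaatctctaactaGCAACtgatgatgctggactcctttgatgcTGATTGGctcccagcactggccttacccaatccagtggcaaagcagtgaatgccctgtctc
H2-Oa (chr17:34092269-34092378, plus strand): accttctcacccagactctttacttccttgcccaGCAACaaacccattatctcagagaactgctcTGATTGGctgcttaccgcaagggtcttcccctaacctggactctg
H2-Ob (chr17:34238795-34238904, plus strand): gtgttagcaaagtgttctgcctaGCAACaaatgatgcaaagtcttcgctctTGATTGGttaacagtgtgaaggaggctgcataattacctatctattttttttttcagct

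The first letters of the pair lay 31 bases apart in H2-Aa and H2-Oa, 30 in H2-Eb1 and 28 in H2-Ob, all on the strand of transcription. Both RefSeq starts of H2-DMa lacked the pair and had 0 matches of TGATTGG on either strand, which says nothing about the factors at that gene. GCAAC alone was not counted there. The sequence is that of the C57BL/6J reference and not of the NOD strain, whose class II alleles differ.

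**Figure D1:**
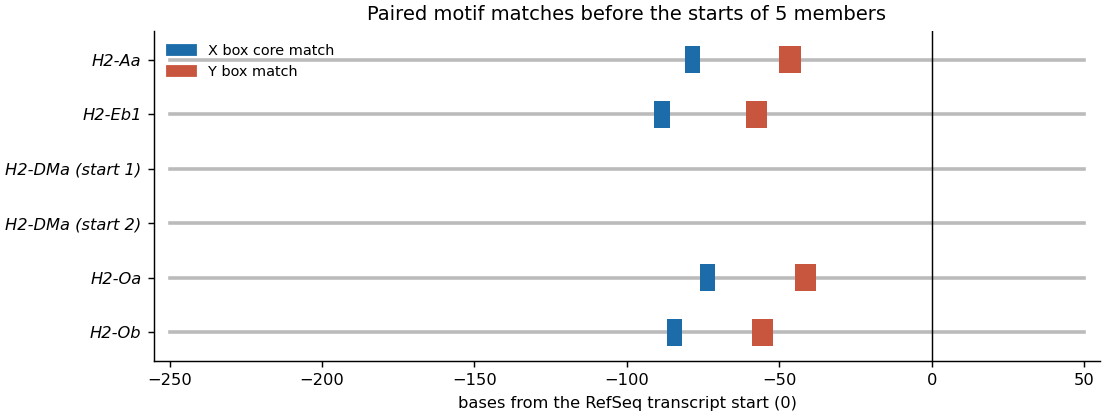
Horizontal lines are the windows around the RefSeq starts of 5 genes, in bases from the start, blue blocks the X box core and red blocks the Y box. In H2-Aa, H2-Eb1, H2-Oa and H2-Ob the blocks stand 28 to 31 bases apart before the start. Blocks are drawn only for the pair, and neither start of H2-DMa has it.

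The values are log2 expression values after RMA, so a difference of 1 is a 2-fold difference, and levels are compared between populations within a gene, not between genes. The array medians ran from 5.76 to 5.82 and the 25th percentiles from 4.40 to 4.47, and no detection calls were used. Klra5 followed the sort and other sort markers did so in part. Klra5, which encodes Ly49E, was at 11.40 ± 0.103 in Ly49E+CD8aa+, 11.43 ± 0.0654 in Ly49E+CD8aa- and 6.59 ± 0.982 in Ly49E-CD8aa+ (SD, n = 3), and Cd8a at 12.55 ± 0.0668, 11.42 ± 0.143 and 12.58 ± 0.0669, high in the cells labelled CD8aa- too. Cd8b1, the CD8 beta chain, was at 8.34 ± 0.216 in those cells against 5.28 ± 0.0271 for Ly49E+CD8aa+ and 5.30 ± 0.132 for Ly49E-CD8aa+ cells. Cd3e, a chain of the CD3 complex, was far above the array medians although the cells were sorted as CD3-, at 11.75 ± 0.0374, 10.70 ± 0.467 and 11.67 ± 0.0884 with Ly49E+CD8aa+ first and Ly49E-CD8aa+ last. The part of these markers in the class II levels was not tested. Enterocyte markers stood apart on the arrays numbered 1 of all 3 populations, with a mean over 11 genes of 8.89 to 9.01, against 8.03 to 8.47 on the other 6 arrays. Populations were compared with limma's moderated test, and a gene was called when its Benjamini-Hochberg adjusted p over all 19938 genes was under 0.05.

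H2-Aa, the alpha chain of the I-A molecule, was lowest in the cells with both markers. It read 7.002, 6.34 and 6.72 on the Ly49E+CD8aa+ arrays, 7.60, 8.03 and 7.67 on those of Ly49E+CD8aa-, and 7.98, 7.53 and 7.77 on those of Ly49E-CD8aa+. Every Ly49E+CD8aa+ array lay below every other array, while the other populations overlapped. The means were 6.69 ± 0.334, 7.77 ± 0.231 and 7.76 ± 0.223 (SD, n = 3). Set against Ly49E+CD8aa-, H2-Aa was lower in the cells with both markers, at a log2 difference of -1.08 (SE 0.185, 2.11-fold, limma adjusted p = 0.0198). No other difference of the 8 genes was called in the 3 comparisons. The difference from Ly49E-CD8aa+ was as large, -1.07 (SE 0.185, 2.10-fold), with an unadjusted p of 0.000256 against 0.000242, yet its adjusted p was 0.124 in a comparison where far fewer genes were called. Between the other populations the difference was 0.01 (95% interval -0.41 to 0.43). The call against Ly49E+CD8aa- was lost without Ly49E+CD8aa+ replicate 2 or 3 (limma adjusted p = 0.0595 and 0.0768), without Ly49E+CD8aa- replicate 2 or 3 (0.0763 and 0.0622), without the 3 arrays numbered 1 (0.0845), and with the 6 arrays of the comparison alone (0.0788), at differences of -0.90 to -1.32. RNA from bulk sorted cells cannot tell fewer cells with class II from less class II RNA per cell.

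H2-Ab1 encodes the beta chain that pairs with H2-Aa, and its arrays followed a similar order. It read 6.78, 6.19 and 6.26 on the Ly49E+CD8aa+ arrays, 6.87, 7.14 and 6.87 on those of Ly49E+CD8aa-, and 7.52, 6.87 and 7.60 on those of Ly49E-CD8aa+. The Ly49E+CD8aa+ arrays were again below all others, by little in the case of replicate 1, and Ly49E-CD8aa+ replicate 2 lay with the Ly49E+CD8aa- arrays. The differences of Ly49E+CD8aa+ from Ly49E-CD8aa+ and from Ly49E+CD8aa- were -0.92 (SE 0.213) and -0.55 (SE 0.213), and neither passed (limma adjusted p = 0.507 and 0.428).

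H2-Eb1, the beta chain of the I-E molecule, showed smaller differences. It read 7.47, 7.31 and 7.11 on the Ly49E+CD8aa+ arrays, 7.64, 7.90 and 7.66 on those of Ly49E+CD8aa-, and 7.94, 7.30 and 8.00 on those of Ly49E-CD8aa+. The first of these populations lay below the second without overlap, and Ly49E-CD8aa+ replicate 2 fell among the Ly49E+CD8aa+ arrays. The differences of -0.44 (SE 0.18) from Ly49E+CD8aa- and -0.45 (SE 0.18) from Ly49E-CD8aa+ did not pass (limma adjusted p = 0.465 and 1). H2-Ea, the alpha chain gene that NOD mice do not transcribe, read 4.32 to 4.75 over the 9 arrays, close to their 25th percentiles, with population means of 4.52, 4.51 and 4.53. H2-Eb2, a further beta chain gene, read 5.002, 4.91 and 4.56 on the Ly49E+CD8aa+ arrays, against 5.79, 6.14 and 5.35 on those of Ly49E+CD8aa-. That difference of -0.94 (SE 0.229) did not pass (limma adjusted p = 0.104), and the Ly49E-CD8aa+ arrays at 5.51, 5.24 and 4.80 overlapped both populations.

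Cd74, the invariant chain, separated all 3 populations. It read 6.84, 6.47 and 6.70 on the Ly49E+CD8aa+ arrays, 7.19, 7.24 and 7.01 on those of Ly49E+CD8aa-, and 8.34, 7.37 and 7.90 on those of Ly49E-CD8aa+. No array of one population overlapped with another, which placed Ly49E-CD8aa+ highest and Ly49E+CD8aa+ lowest. Its difference of -1.20 (SE 0.212, 2.29-fold) between those ends was the largest of any of the 8 genes in the 3 comparisons and did not pass (limma adjusted p = 0.146), nor did Ly49E+CD8aa+ minus Ly49E+CD8aa- at -0.47 (SE 0.212) or Ly49E+CD8aa- minus Ly49E-CD8aa+ at -0.72 (SE 0.212) (limma adjusted p = 0.541 and 0.194). Without Ly49E-CD8aa+ replicate 2, the lowest array of its population, the differences from Ly49E-CD8aa+ were -1.45 for Ly49E+CD8aa+ and -0.97 for Ly49E+CD8aa-, and both passed (limma adjusted p = 0.0233 and 0.0249).

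**Figure D2:**
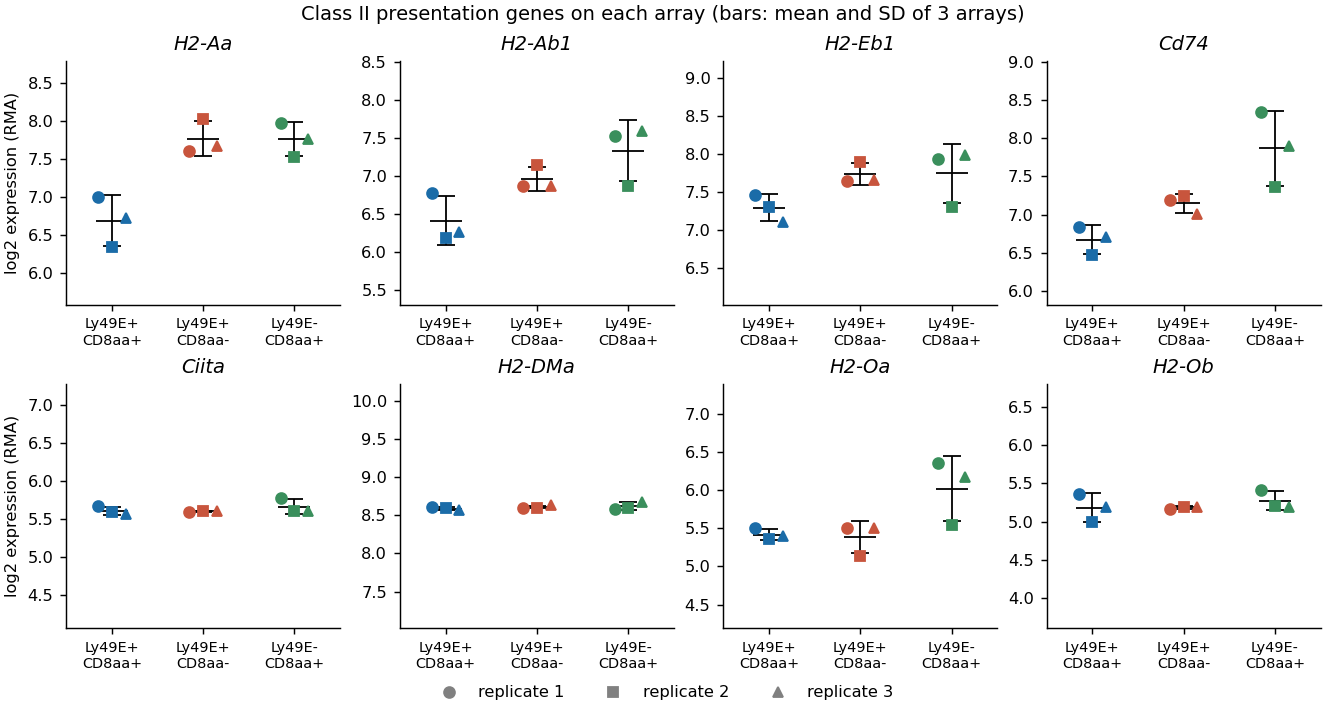
Each panel plots the log2 expression of 1 gene on each of the 9 arrays, coloured by population with a shape for each replicate number, and bars give the mean and SD of 3 arrays on axes of equal span. H2-Aa is lowest on the Ly49E+CD8aa+ arrays (6.34 to 7.002), Cd74 is highest on the Ly49E-CD8aa+ arrays (7.37 to 8.34), and Ciita and H2-DMa stay within 0.21 and 0.10 log2 units.

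The genes that edit the peptide cargo did not move as a group. H2-DMa, the alpha chain of the peptide exchange factor H2-DM, read 8.58 to 8.60 in Ly49E+CD8aa+, 8.60 to 8.63 in Ly49E+CD8aa- and 8.58 to 8.68 in Ly49E-CD8aa+. Its whole range over the 9 arrays was 0.10, against a median range of 0.419 over all genes, and the 95% interval of its difference between Ly49E+CD8aa+ and Ly49E+CD8aa- was -0.15 to 0.11. The rows of H2-DMb1 and H2-DMb2 carry several symbols and were not analysed here.

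H2-Oa, the alpha chain of the inhibitor H2-O, was high on some Ly49E-CD8aa+ arrays. It read 6.35, 5.55 and 6.17 there, 5.50, 5.35 and 5.40 on the Ly49E+CD8aa+ arrays, and 5.50, 5.14 and 5.51 on those of Ly49E+CD8aa-. All Ly49E-CD8aa+ arrays were above the others, but replicate 2 by only a small step. The differences of -0.60 (SE 0.191) for Ly49E+CD8aa+ and -0.64 (SE 0.191) for Ly49E+CD8aa- did not pass (limma adjusted p = 1 and 0.201). Without Ly49E-CD8aa+ replicate 2 the latter was -0.88 and passed (limma adjusted p = 0.0141). H2-Ob, the beta chain of H2-O, overlapped in all populations at 4.99 to 5.36, 5.16 to 5.20 and 5.20 to 5.41, with Ly49E+CD8aa+ first and Ly49E-CD8aa+ last. The 95% interval of its difference between Ly49E+CD8aa+ and Ly49E+CD8aa- was -0.23 to 0.23, and the intervals of the others were both -0.32 to 0.14.

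Ciita, which encodes the class II coactivator CIITA, did not differ measurably. It read 5.66, 5.59 and 5.57 on the Ly49E+CD8aa+ arrays, 5.60, 5.60 and 5.60 on those of Ly49E+CD8aa-, and 5.78, 5.60 and 5.60 on those of Ly49E-CD8aa+. On 8 of the 9 arrays this was below the lowest array median of 5.76. Ly49E-CD8aa+ replicate 1 was the highest array, and the populations overlapped. The 95% interval was -0.15 to 0.16 for Ly49E+CD8aa+ minus Ly49E+CD8aa- and -0.21 to 0.10 for Ly49E+CD8aa+ minus Ly49E-CD8aa+. RMA gave exactly the same value on 3 of the 9 arrays for Ciita and on 4 for H2-Ob, as it did on 4 or more arrays for 18.4% of all genes.

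In counts, Ly49E+CD8aa+ was below Ly49E-CD8aa+ in all 8 genes by their means, with a median difference of -0.53 against -0.00 over all genes. For Ciita, H2-DMa and H2-Ob the differences were only -0.05, -0.03 and -0.09, and their sign was not the same under all alternatives. By limma 0 of 8 were called, beside 0.13% of all genes (0.11% lower and 0.0201% higher), and 5 of 8 had an unadjusted p under 0.05, beside 4.18%. The arrays did not overlap in 4 of 8, beside 3.38% of all genes on the lower side, and in 0 on the higher side, beside 2.88%. Against Ly49E+CD8aa-, 6 of 8 were lower in Ly49E+CD8aa+, with a median of -0.23 against 0.03. Here 1 of 8 was called, on the lower side, beside 1.7% of all genes (1.22% lower and 0.476% higher), 3 had an unadjusted p under 0.05, beside 9.43%, and 4 did not overlap on the lower side, beside 5.52%, and 0 on the higher side, beside 7.41%. Between Ly49E+CD8aa- and Ly49E-CD8aa+, 0 of 8 were called by limma, beside 2.15% (0.802% lower and 1.35% higher), 2 had an unadjusted p under 0.05, beside 10.4%, and 2 did not overlap, both lower in Ly49E+CD8aa-, beside 7.45%, with 0 on the higher side, beside 5.29%. The comparisons share arrays, so these counts are not independent of each other. The F test over the 3 populations called 1 of 8 genes, H2-Aa (limma adjusted p = 0.0214), beside 2.03% of all genes, and Cd74 was at 0.0502.

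**Figure D3:**
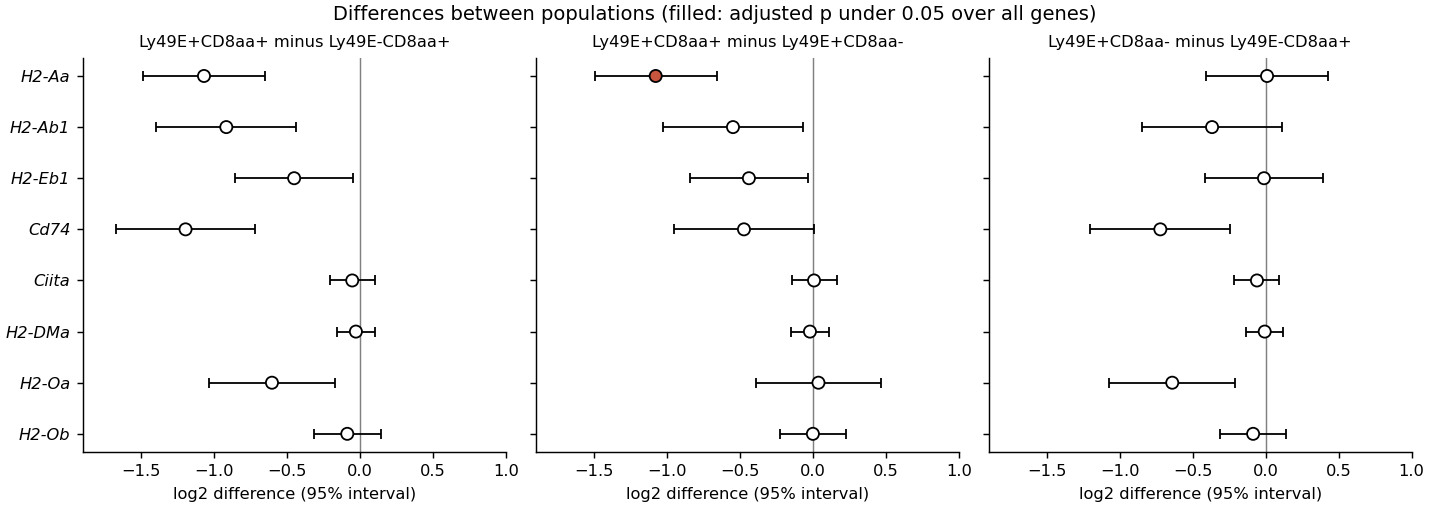
Points are log2 differences between populations for the 8 genes, named in each panel, with 95% intervals from the model, and a filled point has an adjusted p under 0.05 over all genes. The filled point is H2-Aa at -1.08 in the middle panel, and the intervals of Ciita, H2-DMa and H2-Ob include 0 in all 3 panels.

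The chains and the invariant chain varied together over the 9 arrays, as a description only, since the arrays share populations. Pearson correlations between H2-Aa, H2-Ab1, H2-Eb1 and Cd74 ran from 0.758 (H2-Eb1 with Cd74) to 0.921 (H2-Ab1 with Cd74). H2-Oa went with Cd74 (0.846) more than with H2-Aa (0.399), and H2-DMa with none above 0.537. Replicate 2 of Ly49E-CD8aa+ was the lowest array of its population in 5 of the 8 genes (H2-Aa, H2-Ab1, H2-Eb1, Cd74 and H2-Oa), and replicate 2 of Ly49E+CD8aa+ and replicate 1 of Ly49E+CD8aa- were likewise the lowest of theirs in 5 of 8 each.

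Among proteases and other enzymes that prepare peptides for class II, Ctsh was called in both comparisons of Ly49E+CD8aa+. Ctsh, the lysosomal protease cathepsin H, read 4.75, 5.19 and 4.88 on the Ly49E+CD8aa+ arrays, 6.70, 6.48 and 6.84 on those of Ly49E+CD8aa-, and 7.27, 6.42 and 6.43 on those of Ly49E-CD8aa+. The Ly49E+CD8aa+ arrays were far below the others, which overlapped. Its differences were -1.74 (SE 0.223, 3.33-fold, limma adjusted p = 0.00393) from Ly49E+CD8aa- and -1.77 (SE 0.223, 3.41-fold, limma adjusted p = 0.0303) from Ly49E-CD8aa+. The second call was lost with the 6 arrays alone (limma adjusted p = 0.273), without the arrays numbered 1 (0.42), and without any of Ly49E+CD8aa+ replicates 1, 2 and 3 (0.171, 0.122 and 0.138), Ly49E+CD8aa- replicates 1, 2 and 3 (0.0774, 0.0766 and 0.074) or Ly49E-CD8aa+ replicate 3 (0.0724).

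Ifi30, the thiol reductase GILT that opens disulphide bonds of antigens, read 6.77, 6.84 and 6.89 on the Ly49E+CD8aa+ arrays, 7.26, 7.31 and 7.27 on those of Ly49E+CD8aa-, and 7.61, 7.27 and 7.68 on those of Ly49E-CD8aa+. The Ly49E+CD8aa+ arrays lay below all others. The differences of -0.45 (SE 0.102) and -0.69 (SE 0.102) just missed the threshold (limma adjusted p = 0.0754 and 0.0528), while its F test over the populations passed (limma adjusted p = 0.0183). Without Ly49E-CD8aa+ replicate 2 both differences passed (limma adjusted p = 0.0119 and 0.00643). Ctss, cathepsin S, which cuts the invariant chain, differed between Ly49E+CD8aa+ and Ly49E+CD8aa- by -0.54 (SE 0.113, limma adjusted p = 0.0532), with arrays at 8.46, 8.20 and 8.64 against 9.05, 8.82 and 9.06. Without Ly49E+CD8aa+ replicate 3 that difference was -0.64 and passed (limma adjusted p = 0.0325).

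Ctsl, cathepsin L, followed another order. It read 6.13, 5.75 and 6.32 on the Ly49E+CD8aa+ arrays, 5.87, 6.03 and 5.34 on those of Ly49E+CD8aa-, and 7.80, 7.36 and 6.85 on those of Ly49E-CD8aa+, where all arrays stood above the rest. The difference of Ly49E+CD8aa- from Ly49E-CD8aa+ was -1.59 (SE 0.26, 3.01-fold, limma adjusted p = 0.0137), and that of Ly49E+CD8aa+ was -1.27 (SE 0.26, limma adjusted p = 0.299). This Ctsl call was lost when Ly49E+CD8aa- replicate 3 was left out (limma adjusted p = 0.0547), and likewise for Ly49E-CD8aa+ replicate 2 (0.0594) or the arrays numbered 1 (0.229), and with the 6 arrays alone (0.0655). Lgmn, the asparagine endopeptidase, did not pass in any comparison (limma adjusted p = 0.678 to 1). Of the 11 processing genes, 1 was called lower in each comparison and 0 higher. Their median differences were -0.16, -0.05 and -0.09 for Ly49E+CD8aa+ minus Ly49E-CD8aa+, Ly49E+CD8aa+ minus Ly49E+CD8aa-, and Ly49E+CD8aa- minus Ly49E-CD8aa+. Over all genes the medians were -0.00, 0.03 and -0.02 in that order. Of all genes, 0.11%, 1.22% and 0.802% were called lower and 0.0201%, 0.476% and 1.35% higher.

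**Figure D4:**
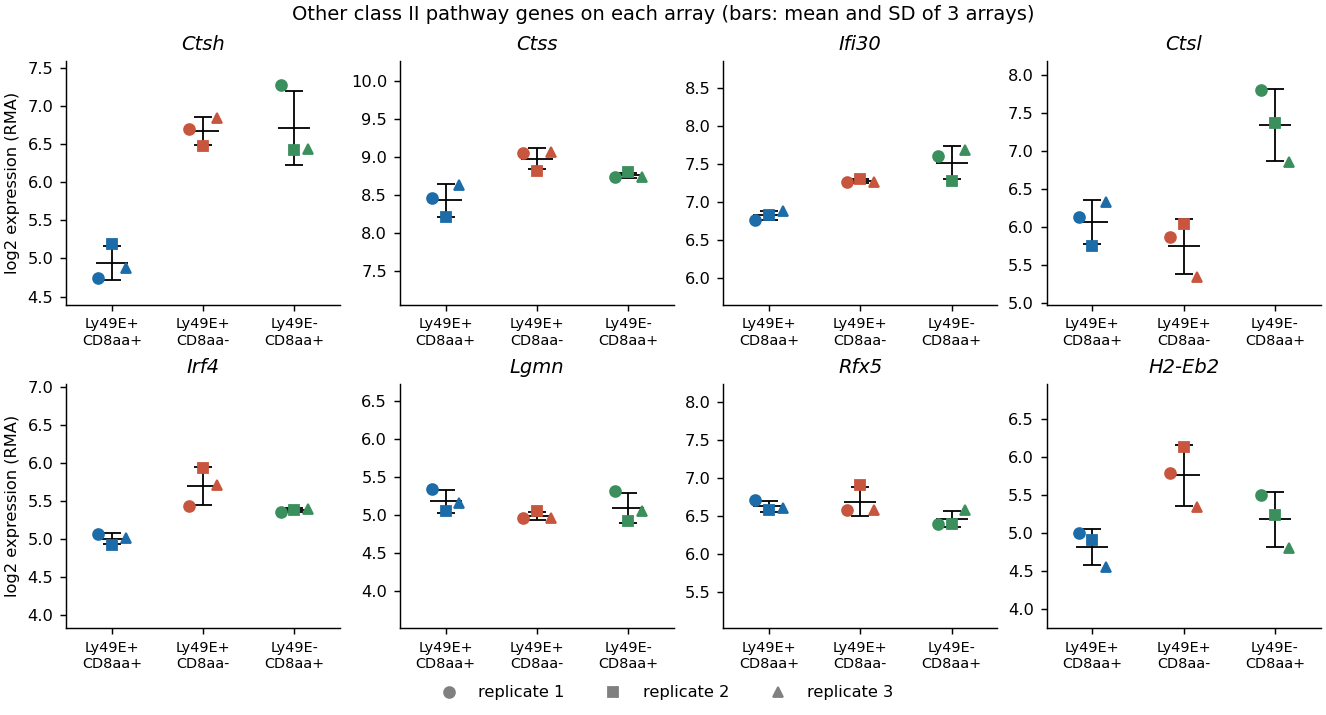
Log2 expression of 8 further genes of the pathway on each of the 9 arrays, with the mean and SD of 3 arrays, on axes of equal span. Ctsh is low on the Ly49E+CD8aa+ arrays (4.75 to 5.19) and Ctsl is high on the Ly49E-CD8aa+ arrays (6.85 to 7.80), while Rfx5 and Lgmn overlap between populations.

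Measured were 11 genes for transcription from class II promoters, among them the RFX and NF-Y subunits, Creb1, Spi1 and factors of the IRF family. Of these, 1 was called between Ly49E+CD8aa+ and Ly49E+CD8aa-, beside 1.7% of all genes. Against Ly49E-CD8aa+, 0 were called by limma for Ly49E+CD8aa+ and for Ly49E+CD8aa-, beside 0.13% and 2.15% of all genes. There 3 and 2 had an unadjusted p under 0.05, beside 4.18% and 10.4%. Irf4, a factor of many lymphocytes and dendritic cells, read 5.07, 4.92 and 5.02 on the Ly49E+CD8aa+ arrays, against 5.44, 5.93 and 5.72 on those of Ly49E+CD8aa-, a difference of -0.69 (SE 0.112, limma adjusted p = 0.014). That call was lost without Ly49E+CD8aa+ replicate 2 or 3 (limma adjusted p = 0.0704 and 0.0584), without Ly49E+CD8aa- replicate 3 (0.0638) and with the 6 arrays alone (0.0866). Rfx5, a subunit of the RFX complex on the X box, was at 6.63 ± 0.0729, 6.69 ± 0.191 and 6.46 ± 0.105 (SD, n = 3), with Ly49E+CD8aa+ first and Ly49E-CD8aa+ last, and passed in no comparison (limma adjusted p = 0.483 to 1).

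Costimulatory genes and the class I pathway gave 0 calls by limma. Of 8 costimulation genes 0 were called in any comparison, beside 0.13%, 1.7% and 2.15% of all genes, in the order of comparisons used for the processing genes. An unadjusted p under 0.05 was found in 0, 4 and 4 of them, beside 4.18%, 9.43% and 10.4% of all genes. Cd80 and Cd86, the ligands of CD28, were at 4.34 to 4.48 and 4.53 to 4.69 by population means. Of 12 measured class I genes 0 were called, and 0, 3 and 2 had an unadjusted p under 0.05, beside the same shares of all genes. Their median differences were 0.01, 0.00 and 0.02 in that order, against -0.00, 0.03 and -0.02 over all genes. Nlrc5, the coactivator of class I genes related to CIITA, was at 9.79 ± 0.268, 9.27 ± 0.301 and 10.00 ± 0.301 (SD, n = 3), with Ly49E+CD8aa+ first and Ly49E-CD8aa+ last, and passed in no comparison (limma adjusted p = 0.15 to 1). The rows of H2-K1 and H2-D1 carry several symbols and were not analysed here.

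By the mean of their list, markers of plasmacytoid dendritic cells were highest in Ly49E-CD8aa+, the population highest in Cd74 and H2-Oa. Of 10 measured, 9 were highest there by population means, and 1, Pacsin1, was lowest there (6.20, 6.55 and 6.15, Ly49E+CD8aa+ first, Ly49E-CD8aa+ last). The mean log2 level over 10 measured markers of plasmacytoid dendritic cells (of 12 listed) was 6.27 to 6.31 in Ly49E+CD8aa+, 6.29 to 6.38 in Ly49E+CD8aa- and 7.12 to 7.72 in Ly49E-CD8aa+, lowest there on replicate 2. Against Ly49E-CD8aa+, 6 of these 10 were called lower in Ly49E+CD8aa+, beside 0.11% of all genes. Among them were the lectin Siglech (-1.98, limma adjusted p = 0.00099) and Cd209d (-1.87, limma adjusted p = 0.0154). The count of 6 was 2 without any of Ly49E+CD8aa+ replicates 1, 2 and 3 or Ly49E+CD8aa- replicates 1 and 2, 3 without Ly49E-CD8aa+ replicate 3, 4 without Ly49E+CD8aa- replicate 3 or Ly49E-CD8aa+ replicate 1, and 0 with the 6 arrays alone. Between Ly49E+CD8aa- and Ly49E-CD8aa+, 6 of 10 were called lower as well, beside 0.802% of all genes. That count stayed at 6 whichever single array was left out. Without the arrays numbered 1, the counts against Ly49E-CD8aa+ were 2 for Ly49E+CD8aa+ and 4 for Ly49E+CD8aa-. With the 6 arrays alone the Siglech and Cd209d calls against Ly49E+CD8aa+ were both lost (limma adjusted p = 0.064 and 0.204). That of Cd209d was also lost without Ly49E+CD8aa+ replicate 1, 2 or 3 (0.092, 0.0731 and 0.101) or Ly49E+CD8aa- replicate 1 or 2 (0.0509 and 0.0536). Without the arrays numbered 1 the Cd209d call was lost as well (0.404). The 10 markers of conventional dendritic cells had means of 5.51 to 5.61, 5.63 to 5.65 and 5.85 to 5.95 in the same order of populations. By limma 0 of these were called between Ly49E+CD8aa+ and Ly49E-CD8aa+, beside 0.13% of all genes. An unadjusted p under 0.05 was found in 5 of 10, beside 4.18%. The other comparison with Ly49E-CD8aa+ called Clec9a and Cd209a lower and Batf3 higher in Ly49E+CD8aa- (limma adjusted p = 0.0138, 0.00385 and 0.0448). In that comparison 2.15% of all genes were called. The Clec9a call was lost without Ly49E+CD8aa- replicate 1 or 3 (limma adjusted p = 0.0627 and 0.0625), and the Batf3 call without any single array other than Ly49E+CD8aa- replicate 3 (0.0524 to 0.161). With the 6 arrays alone the Clec9a and Batf3 calls were both lost (0.0623 and 0.158). Without the arrays numbered 1, the calls of Clec9a (0.108), Batf3 (0.34) and Cd209a (0.0754) were lost. The part of these markers in the class II levels was not tested.

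Between Ly49E+CD8aa+ and Ly49E-CD8aa+, 2 of 13 macrophage and 1 of 10 B cell markers were called, beside 0.13% of all genes. The 13 markers of macrophages and monocytes had means of 5.02 to 5.04, 4.86 to 4.98 and 5.26 to 5.52, with Ly49E+CD8aa+ first and Ly49E-CD8aa+ last. Most of the rise in the mean in Ly49E-CD8aa+ came from 2 genes, Cybb and Mpeg1. The median difference from Ly49E-CD8aa+ was -0.05 for Ly49E+CD8aa+ and -0.05 for Ly49E+CD8aa-, against -0.00 and -0.02 over all genes. Of the 13, 5 and 3 went the other way in these comparisons. Cybb, the NADPH oxidase subunit of phagocytes, and Mpeg1 were called lower in Ly49E+CD8aa+ against Ly49E-CD8aa+ (-2.48 and -1.75, limma adjusted p = 0.0029 and 0.0183). With the 6 arrays alone both the Cybb and the Mpeg1 call were lost (limma adjusted p = 0.101 and 0.204). The Mpeg1 call was also lost without Ly49E+CD8aa+ replicate 1, 2 or 3 (0.092, 0.0731 and 0.101), Ly49E+CD8aa- replicate 1 or 2 (0.0573 and 0.0636) or Ly49E-CD8aa+ replicate 1 (0.0895). Without the arrays numbered 1 it was lost as well (0.565). Adgre1, which encodes a surface antigen of macrophages, read 3.40 to 3.50 on all arrays, below their 25th percentiles. The 10 measured B cell markers (of 11) had means of 4.80 to 4.92, 4.77 to 4.85 and 4.86 to 5.08, with Ms4a1, which encodes CD20, at 3.94 to 4.27. Blnk, a B cell adaptor also made by plasmacytoid dendritic cells, was the called gene of that list (-0.74, limma adjusted p = 0.0183, Ly49E+CD8aa+ minus Ly49E-CD8aa+). It was lost without Ly49E+CD8aa+ replicate 1, 2 or 3 (limma adjusted p = 0.0742, 0.132 and 0.104), Ly49E+CD8aa- replicate 1, 2 or 3 (0.0614, 0.0635 and 0.0558) or Ly49E-CD8aa+ replicate 1 (0.0745). It was also lost with the 6 arrays alone (0.204) and without the arrays numbered 1 (0.565). The same 3 genes were called lower in Ly49E+CD8aa- against Ly49E-CD8aa+, beside 0.802% of all genes. Cybb was at -2.39, Mpeg1 at -1.95 and Blnk at -0.60 (limma adjusted p = 0.000282, 0.000739 and 0.00558). These calls held in 19 of 19, 19 of 20 and 17 of 19 alternatives. The part of these lists in the class II levels was not tested.

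Ly49E+CD8aa- cells, which were as high as Ly49E-CD8aa+ in H2-Aa, had plasmacytoid markers near those of Ly49E+CD8aa+ cells. The list mean overlapped with that of Ly49E+CD8aa+. By limma 0 of its 10 genes were called between these populations, beside 1.7% of all genes, and 1 had an unadjusted p under 0.05, beside 9.43%. Markers of ILC3, a type of innate lymphoid cell that can carry class II, were highest there instead. The 6 measured genes (of 8) had means of 6.18 to 6.29 in Ly49E+CD8aa-, against 5.25 to 5.32 in Ly49E+CD8aa+ and 5.28 to 5.41 in Ly49E-CD8aa+. Of the 6, 2 were called lower in Ly49E+CD8aa+ against Ly49E+CD8aa-, beside 1.22% of all genes. Most of the difference in the mean came from Il23r, the IL-23 receptor, at -3.72 (SE 0.229, limma adjusted p = 2.9e-05), while Nrp1 was at -0.49 (SE 0.0929, limma adjusted p = 0.033), a call lost without any single array other than Ly49E+CD8aa- replicate 1 (0.0545 to 0.135). The Nrp1 call was also lost with the 6 arrays alone (0.119) and without the arrays numbered 1 (0.109). Ccr6, Cd4 and Tnfsf11 were at -0.42, -0.63 and -0.44 and Il17a at 0.08, none called (limma adjusted p = 0.0683 to 0.831). The part of this list in the H2-Aa level was not tested.

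Enterocyte markers were highest on replicate 1 of each population. Their mean was 8.89, 8.41 and 8.43 on replicates 1, 2 and 3 of Ly49E+CD8aa+, 9.01, 8.47 and 8.08 of Ly49E+CD8aa-, and 8.94, 8.19 and 8.03 of Ly49E-CD8aa+. By limma 0 of 11 were called in any comparison, beside 0.13% to 2.15% of all genes. In each comparison 1 of 11 had an unadjusted p under 0.05, beside 4.18% to 10.4% of all genes. The part of enterocyte markers in the class II levels was not tested. Leaving the arrays numbered 1 out cannot test it, since these arrays also shared deviations over all genes. Without the 3 arrays numbered 1, the difference of H2-Aa from Ly49E+CD8aa- was -1.32 in place of -1.08, and its call was lost (limma adjusted p = 0.0845).

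**Figure D5:**
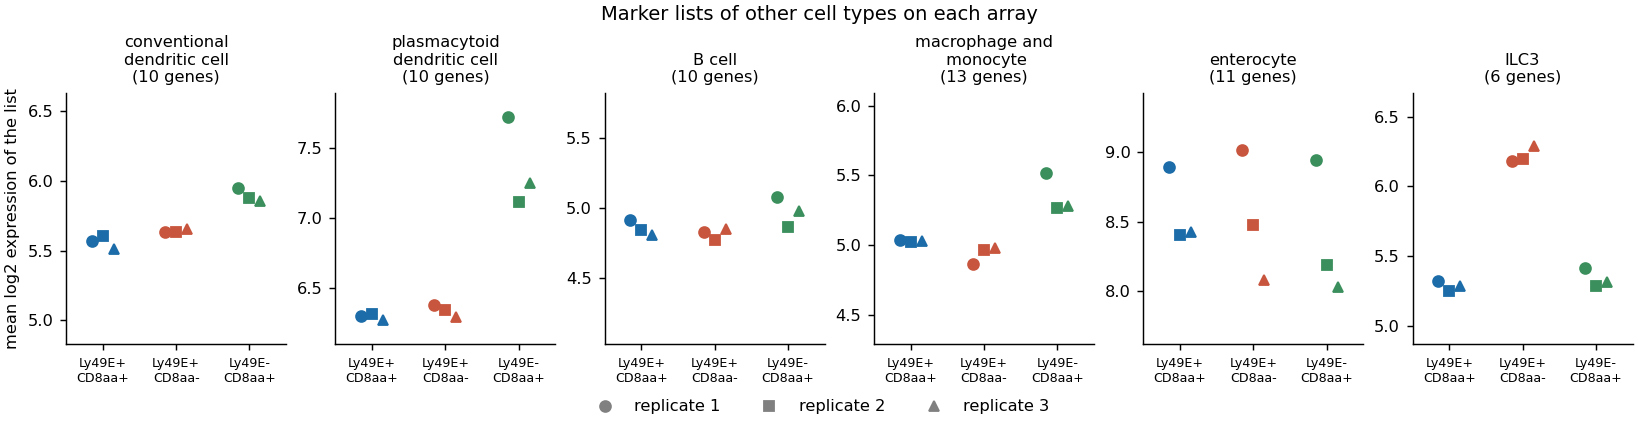
Mean log2 level of 6 marker lists on each array, coloured by population with a shape for each replicate number, on axes of equal span. Plasmacytoid dendritic markers are high on the Ly49E-CD8aa+ arrays (7.12 to 7.72), ILC3 markers on the Ly49E+CD8aa- arrays (6.18 to 6.29), and enterocyte markers on replicate 1 of each population.

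The genes nearest in pattern were sought by Pearson correlation over the 9 arrays, among 823 genes whose population means span at least 0.5 log2 units. The 10 nearest to the mean of the 8 centred genes were Ifi30 (0.9123), Dusp7 (0.8849), Lair1 (0.8824), Pir (0.8806), Rnase6 (0.8748), Ifitm3 (0.8584), Aldh2 (0.8556), Plbd1 (0.8443), Clec10a (0.8335) and Hpse (0.8295). H2-Aa alone was nearest to Ifitm3 (0.9311), an interferon-induced membrane protein with means of 5.15, 7.08 and 7.07 (Ly49E+CD8aa+ first, Ly49E-CD8aa+ last), then to Zfp949 (0.8701), Ctsh (0.8654), Iigp1 (0.8576) and Ifi30 (0.852). Ciita, with its narrow range, was nearest to Tlr9 (0.9083), P2ry13 (0.8812), Zc3h12c (0.8735), Marcks (0.8552) and Cmah (0.8434). Ciita read 5.78 on Ly49E-CD8aa+ replicate 1 and 5.57 to 5.66 on all other arrays, so its correlations rest largely on that array. Ifi30 was thus the nearest of the 823 to the mean pattern, and it also came from the list of class II processing genes.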

How the data were processed

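The deposited values were log2 expression values made by the authors with RMA, per the submitters' processing notes, with 1 row per transcript cluster and values from 1.84 to 13.84. The RMA version, genome build and annotation were not given in the sources used here. Of 35556 rows, 21789 had 1 gene symbol in the platform annotation, 1621 had several and 12146 were not listed. Symbols were updated by identifier, and the row with the highest mean stood for each of 999 genes with several rows, which left 19938 genes. Class II chains are related in sequence and differ between strains, and cross-hybridisation was not tested.

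With 1 mean per population, all 9 arrays entered a single fit in limma 3.58.1 under R 4.3.3 (empirical Bayes, prior degrees of freedom 3.08, residual 6, 2-sided tests, no block), tested on simulated data. The number of arrays limits the precision, with a median SE of 0.0976. Intervals of 95% use the moderated variance.

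The genes and lists were chosen with earlier results of these data known. The lists cover class II chains, their transcription, antigen processing, costimulation and class I presentation, and markers of dendritic cells, B cells, macrophages, enterocytes, ILC3 and intraepithelial lymphocytes. Named were all 8 genes, a few fixed genes of each list, up to 4 called genes of each list with the largest difference and the genes nearest in pattern. Hpse and other genes nearest in pattern were ranked among genes spanning at least 0.5. Motifs were searched in Python 3.11.15. Alternatives were the 6 arrays of a comparison, filters on dim rows, repeated quantile normalization, median centring, an intensity trend, robust moderation, the replicate number as a block, the mean of a gene's rows, a minimum difference of 0.5, and each array left out.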

Additional observations from a re-analysis of the deposited data

How the results depend on the processing

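The sign of the differences of H2-Aa, H2-Ab1, H2-Eb1 and Cd74 between Ly49E+CD8aa+ and either other population was the same under all 20 alternatives. The H2-Aa call against Ly49E+CD8aa- held in 13 of 20, so the count of 1 called gene became 0 with the 6 arrays alone, with a minimum difference of 0.5 (adjusted p = 0.724) and, chosen after seeing the data, without the 3 arrays numbered 1, and 0 to 1 with an array left out. With an array left out, the count ran from 0 to 1 for Ly49E+CD8aa+ minus Ly49E-CD8aa+ and from 0 to 2 for Ly49E+CD8aa- minus Ly49E-CD8aa+, both above 0 only without Ly49E-CD8aa+ replicate 2. The F test count of 1 became 2 with either filter on dim rows, the intensity trend, the replicate block and the mean of a gene's rows, 0 without the arrays numbered 1, and 0 to 4 with an array left out. The cause of these changes was not tested. Ciita, H2-Oa and H2-Ob fell out of the filter at the median and have no value there.

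Over all genes, the 26 calls of Ly49E+CD8aa+ minus Ly49E-CD8aa+ became 0 with the 6 arrays alone, 16 above the median, 17 with the block, 4 with a minimum difference, 4 without the arrays numbered 1 and 5 to 32 with an array left out, the highest without Ly49E-CD8aa+ replicate 2. The 339 of Ly49E+CD8aa+ minus Ly49E+CD8aa- became 107 with a minimum difference and 121 without the arrays numbered 1. The 429 of Ly49E+CD8aa- minus Ly49E-CD8aa+ became 263 with the 6 arrays alone, 123 with a minimum difference and 165 without the arrays numbered 1.

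Same-numbered arrays of different populations had correlations of deviations from -0.0627 to 0.222, with 4 of 9 over 0.1. Pairs with different numbers ran from -0.169 to 0.103. Pairs among the arrays numbered 1 were at 0.172, 0.222 and 0.127, and 10 of 18 array-by-population checks matched best with the own number. A link between same-numbered arrays was not tested further, and the main fit used no block. With the replicate block, 0, 1 and 0 of the 8 genes were called in the 3 comparisons, as without it. Among the other genes named, H2-Eb2 (limma adjusted p = 0.00949) and Ctss (0.0446) passed between Ly49E+CD8aa+ and Ly49E+CD8aa-, Ctsh (0.0795) did not pass between Ly49E+CD8aa+ and Ly49E-CD8aa+, and Batf3 (0.066) did not pass between Ly49E+CD8aa- and Ly49E-CD8aa+. Nrp1 (0.0697) did not pass between Ly49E+CD8aa+ and Ly49E+CD8aa-, and the 6 plasmacytoid markers called between Ly49E+CD8aa+ and Ly49E-CD8aa+ became 3, without Spib (0.0548), Cox6a2 (0.0874) and Pld4 (0.0904).

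Without detection calls, a low value such as that of Ciita is no evidence of a missing transcript, and 3 arrays a population limit what can be called. Whether replicates came from separate mice is not given beyond the word biological. The p-values thus set each difference against the moderated spread between these arrays.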
